A study of Mus musculus with 4 samples.

Results

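The GIMAP genes encode the GTPases of the immunity-associated protein family. They were studied here as the 8 genes that the deposited table lists by the symbols Gimap1, Gimap3, Gimap4, Gimap5, Gimap6, Gimap7, Gimap8 and Gimap9. All 8 had counts and passed the filter on low counts, out of 24062 genes in the table and 11271 tested. They were chosen by name, with earlier results of these data known.

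RNA was sequenced from gBT-I cells, which are CD8+ T cells of transgenic (tg) donor mice whose T cell receptor is specific for glycoprotein B of herpes simplex virus. Splenocytes of SPF gBT-I tg mice were stimulated in culture with that peptide and LPS, were split with IL-1 on days 2 and 3, and went into recipients by vein on day 4. The groups differ in the recipient: specific pathogen free (SPF) C57BL/6 mice, or germ free (GF) C57BL/6 mice, with 2 libraries each. In both groups the gBT-I cells were sorted from spleen on day 7 after transfer, and the comparison asks how cells of the same origin differ in hosts with and without a microbiota. The labels give no recipient age and do not say whether the 2 libraries of a group came from separate mice or from pools. All p-values therefore reflect only how far these libraries differ.

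GIMAP proteins share a guanine nucleotide binding domain related to that of septins and of plant AIG1 proteins, and they occur mainly in lymphocytes. Several are anchored in membranes of internal organelles. Loss of Gimap1 or Gimap5 in mice leaves few mature peripheral T cells, so the family is best known for T cell survival and quiescence.

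The cluster lies in mm10 on chromosome 6 from 48647234 to 48770851, a span of 123618 bases, in the order Gimap8, Gimap9, Gimap4, Gimap6, Gimap7, Gimap1, Gimap5 and Gimap3. Gimap6 and Gimap3 are on the minus strand and the other 6 genes on the plus strand. Gimap7 runs from 48718621 to 48724636, with Gimap1 (48739054 to 48743795) and Gimap5 (48746197 to 48754210) next to it on the same strand. The annotated gene Gm28053 spans these 3 genes from 48718607 to 48752644, shares exon sequence with each of them, and has no row in the table. The antisense gene Gimap1os overlaps 1107 bases of Gimap1 exons and has no row either. How strand was handled in the counting is not given, so reads from the overlap may come from either gene of the pair.

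The sequences upstream of Gimap7, Gimap1 and Gimap5 are shown because these 3 adjacent genes had log2 fold changes between recipients of -1.02, -0.50 and 0.01. Each is the 250 bases before the RefSeq start (GRCm38.p6, 5′ to 3′ on the plus strand), at chr6:48718371-48718620, chr6:48738797-48739046 and chr6:48745947-48746196. Capitals mark TGTGGT, the core of RUNX sites, and GGAAGT, the core of many ETS sites, on either strand.
Gimap7: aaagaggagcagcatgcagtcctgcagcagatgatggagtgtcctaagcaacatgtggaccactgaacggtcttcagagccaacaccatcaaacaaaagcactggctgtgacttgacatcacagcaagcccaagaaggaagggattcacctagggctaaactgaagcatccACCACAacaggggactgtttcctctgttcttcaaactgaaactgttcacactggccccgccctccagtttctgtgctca
Gimap1: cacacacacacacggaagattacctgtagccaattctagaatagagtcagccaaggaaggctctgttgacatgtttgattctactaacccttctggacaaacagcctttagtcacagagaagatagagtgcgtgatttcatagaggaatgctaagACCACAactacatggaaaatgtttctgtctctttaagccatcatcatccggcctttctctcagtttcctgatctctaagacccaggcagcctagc
Gimap5: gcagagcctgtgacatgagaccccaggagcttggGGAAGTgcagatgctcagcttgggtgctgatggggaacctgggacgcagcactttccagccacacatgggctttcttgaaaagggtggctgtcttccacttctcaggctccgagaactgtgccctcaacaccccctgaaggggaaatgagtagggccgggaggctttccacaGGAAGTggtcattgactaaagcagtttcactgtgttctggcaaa
Gimap7 and Gimap1 each hold a RUNX core on the opposite strand, starting 79 and 95 bases before the start, and no ETS core. Gimap5 holds 2 ETS cores, 216 and 44 bases before its start, and no RUNX core. RefSeq windows matched all 8 genes, 9 windows in all since Gimap8 has 2 that overlap. Of these 9, the RUNX core was in 3 (Gimap4, Gimap7 and Gimap1) against 14% of all 32851 windows of the same length, and the ETS core was in 2 (Gimap6 and Gimap5) against 19.7%. These 2 motifs do not overlap each other in the windows shown. The forkhead motif TGTTTAC was in 1 window (Gimap3) against 3.17% of all, TATAAA in 1 (Gimap6) against 12.4%, the GC box GGGCGG in 2 (Gimap9 and Gimap7) against 32.7%, and the GATA-factor motif AGATAA and the E box CACGTG in 0 against 9.99% and 6.02%. The matches describe letters only.

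The libraries held 11544960 (SPF replicate 1) to 14431533 (GF replicate 2) counts. Chi-square per degree of freedom, over tested genes, was 92.2 between the SPF libraries and 46.5 between the GF libraries, against 19.2 between SPF replicate 2 and GF replicate 2. Libraries of different recipients were thus in part more alike than replicates, and SPF replicate 1 stood furthest from the rest. The defining T cell markers of the sorted population were abundant, with 5804 to 7715 CPM (counts scaled to library size) for 10 T cell genes together.

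GIMAP transcripts were abundant in both groups. The 8 genes together took 0.514% and 0.434% of all counts in the SPF libraries (replicate 1, then 2) and 0.437% and 0.377% in the GF libraries. The highest share was in SPF replicate 1 and the lowest in GF replicate 2, while SPF replicate 2 and GF replicate 1 were level. In bulk RNA, fewer cells of a type and less RNA per cell cannot be told apart.

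Levels of different genes were compared as CPM per kilobase of annotated exon. Gimap4, a cytosolic member linked to T cell death, had the highest mean at 559 CPM per kilobase over the 4 libraries (range 463 to 696). Gimap3, a membrane-anchored close relative of Gimap5, followed at 489 (459 to 526). Their ranges overlapped, although Gimap4 was above Gimap3 in 4 of 4 libraries. Gimap6, which binds the autophagy protein GABARAPL2, came next at 222 (185 to 249) and overlapped neither neighbour in this order. Gimap8, a large member with several GTPase domains, had 156 (136 to 164), Gimap9 98.8 (74.96 to 142) and Gimap1 92.7 (71.0 to 137). Gimap7, a member that forms GTP-dependent dimers, had 61.7 (39.1 to 103), and Gimap5, which acts at lysosomes, had the lowest mean at 41.6 (39.7 to 43.7). From Gimap8 to Gimap5 each range overlapped that of the next gene. Gimap7 was above Gimap5 in 3 of 4 libraries; in GF they were level, at 42.3 and 39.1 for Gimap7 and 39.7 and 43.7 for Gimap5. By its mean over the 4 libraries Gimap5 was the lowest of the family, with the smallest spread, and still lay above 88% of tested genes on this scale, as Gimap4 lay above 99.6%. With the longest transcript as the length, Gimap3 was first and Gimap4 second, and Gimap1 moved ahead of Gimap9.

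**Figure D1:**
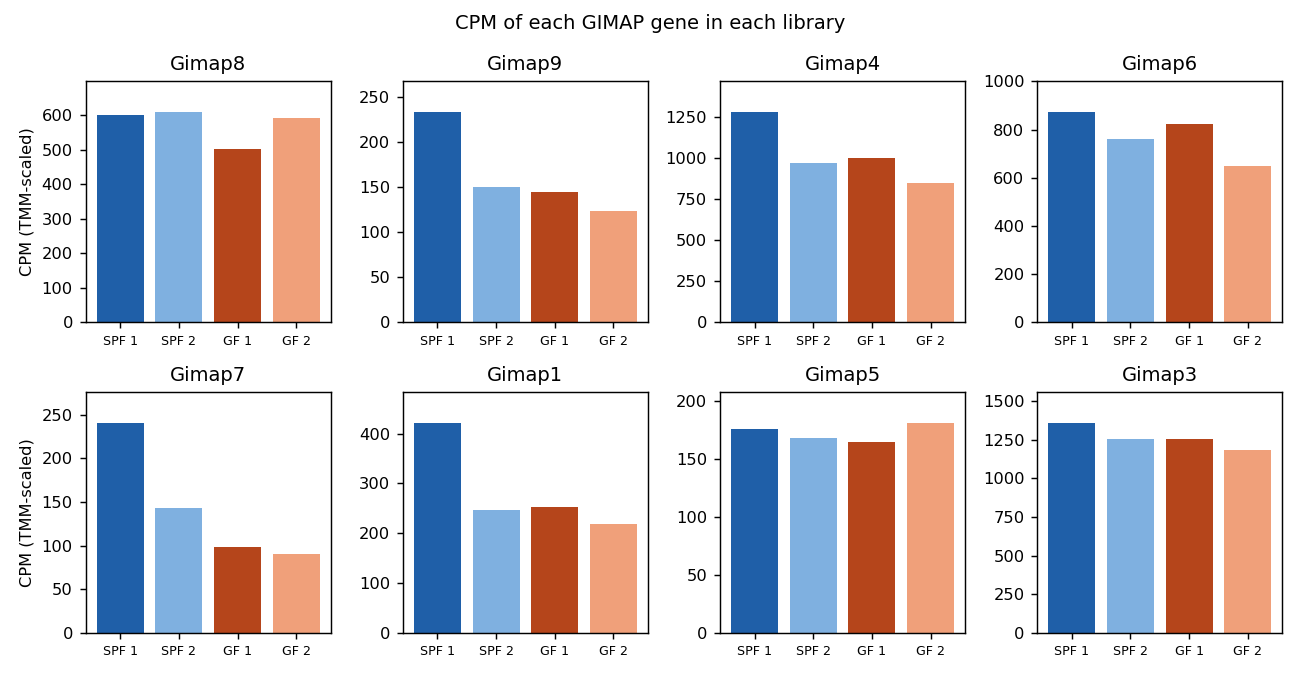
Bars give TMM-scaled CPM of each GIMAP gene (vertical axis from 0, own scale per panel) in SPF replicates 1 and 2 (blue) and GF replicates 1 and 2 (orange), 1 bar per library. Gimap7 went from 240.5 and 143.8 CPM in SPF to 98.4 and 90.8 CPM in GF, whereas Gimap5 stayed between 165 and 181 CPM.

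Gimap7 differed most between recipients. It had 240.5 and 143.8 CPM in SPF and 98.4 and 90.8 CPM in GF (replicate 1, then 2, as in all pairs of values that follow), from 2755, 2036, 1442 and 1270 counts. Both GF libraries were below both SPF libraries. The means were 192 ± 68 CPM (SPF) against 94.6 ± 5.4 CPM (GF), with SD over 2 libraries each. The log2 fold change was -1.02 (SE 0.30), or 0.49 times the SPF level with a 95% interval of 0.29 to 0.84. In the edgeR quasi-likelihood test this gave an unadjusted p of 0.018, rank 101 of 11271 genes, and an adjusted p of 0.86 (Benjamini-Hochberg). Gimap7 therefore did not pass, and 0.93% of tested genes had a log2 fold change as low or lower. It passed in 3 of the 17 alternatives. These were the fit without SPF replicate 2 (log2 fold change -1.35) and the 2 fits with the replicate block, given in a later section. The first leaves a lone SPF library, and no label says what the replicate numbers mark. The log2 fold change of Gimap7 was negative in 17 of 17, from -1.35 to -0.60. These alternatives are not separate observations, since all use these same libraries and the threshold of 0.1 cannot change a fold change.

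No member passed that test, where 0% of all 11271 genes passed. At an unadjusted p under 0.05, Gimap7 was 1 of 8 members, against 3.22% of tested genes (363 genes, 245 higher in GF and 118, or 1.05%, lower in GF). DESeq2 called 9 genes, the edgeR exact test 9 and limma-voom 0, and each called 0 of the 8 members. Missing the threshold does not show that the recipients were alike. A log2 fold change below 0 was found for 7 of 8 members, against 50.3% of tested genes, with a median of -0.22 against -0.00 over all tested genes. That median was -0.07 without SPF replicate 1, -0.36 without SPF replicate 2 and -0.37 without GF replicate 1. Groups without overlap were found for 4 members (Gimap3, Gimap7, Gimap8 and Gimap9), against 33.2% of tested genes. All 4 were lower in GF, against 16.4% of tested genes, and 0 members were higher without overlap, against 16.8%.

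**Figure D2:**
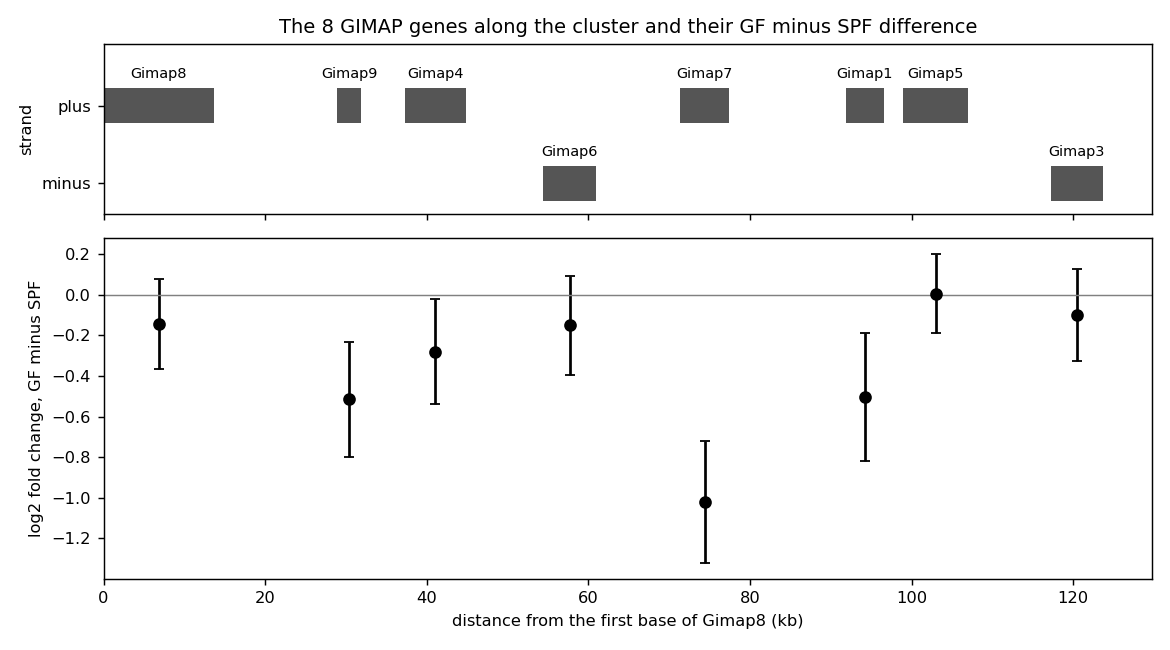
Upper panel, extent of each gene on its strand along the cluster; lower panel, log2 fold change of GF minus SPF at each gene's midpoint with its standard error (bars, n = 2 libraries per group). The horizontal axis is the distance from the first base of Gimap8 in kilobases. Gimap7 is lowest at -1.02, between Gimap6 at -0.15 and Gimap1 at -0.50, and Gimap5 is at 0.01.

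Gimap9 and Gimap1 came next in size. Gimap9 had 232.4 and 149.4 CPM in SPF and 144.0 and 123.1 CPM in GF, so that the groups did not overlap but SPF replicate 2 and GF replicate 1 were close. Its log2 fold change was -0.51 (SE 0.28, adjusted p = 0.86 in the edgeR quasi-likelihood test), and it passed in 1 of the 17 alternatives. Gimap1, which mature lymphocytes need, had 421.0 and 247.0 CPM in SPF and 252.9 and 218.1 CPM in GF. Here GF replicate 1 was above SPF replicate 2, and the groups overlapped. Its log2 fold change of -0.50 (SE 0.31) became -0.07 without SPF replicate 1, and that of Gimap9 became -0.16. The differences of both genes were thus carried mainly by SPF replicate 1, while Gimap7 kept -0.60 without it.

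The other 5 genes differed less. Gimap4 had 1279.3 and 971.9 CPM in SPF and 1002.4 and 851.1 CPM in GF, with overlapping groups. Its log2 fold change of -0.28 (SE 0.26) became -0.07 without SPF replicate 1 and -0.47 without SPF replicate 2. Gimap6 had 871.0 and 761.8 CPM in SPF and 823.1 and 647.6 CPM in GF, which also overlapped, with -0.15 (SE 0.25). In Gimap8, GF replicate 1 was low at 502.0 CPM and the other 3 libraries lay between 592.9 and 608.4 CPM, with -0.14 (SE 0.22). Gimap3 had 1356.5 and 1251.9 CPM in SPF and 1251.3 and 1182.8 CPM in GF. Although its groups did not overlap, the nearest pair differed by less than 1 CPM, and its log2 fold change was -0.10 (SE 0.23).

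Gimap5 had the fold change nearest to 0. It had 176.2 and 168.4 CPM in SPF and 164.8 and 181.2 CPM in GF, with both GF values at the edges of the range. The log2 fold change was 0.01 (SE 0.20), or 1.00 times the SPF level with a 95% interval of 0.71 to 1.42. Gimap5 and Gimap3 share sequence: 11.4% of the 36-base windows of Gimap3 transcripts and 6.94% of those of Gimap5 occur in the other gene, or 3.32% and 1.97% at 75 bases. No other pair of members shares a window of 36 bases. Reads from the shared stretches could be split or lost in the counting. The count ratio of Gimap3 to Gimap5 was 7.70 and 7.43 in SPF and 7.59 and 6.53 in GF.

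Differences between single libraries separated the members further. From SPF replicate 1 to 2, Gimap1 differed by -0.77, Gimap7 by -0.74, Gimap9 by -0.64 and Gimap4 by -0.40 in log2 CPM. Gimap3, Gimap5, Gimap6 and Gimap8 differed by -0.19 to 0.02. So the members with the larger GF minus SPF differences were also those that varied most within SPF. From GF replicate 1 to 2 the members differed by -0.35 (Gimap6) to 0.24 (Gimap8), and Gimap7 by -0.12. Setting GF replicate 1 against SPF replicate 2, Gimap7 differed by -0.55 and Gimap8 by -0.28. The other 6 members lay between -0.05 and 0.11 in that pair. Within replicate number 1, Gimap7 differed by -1.29 between GF and SPF, and within number 2 by -0.66. The labels do not say that a number marks a shared batch.

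**Figure D3:**
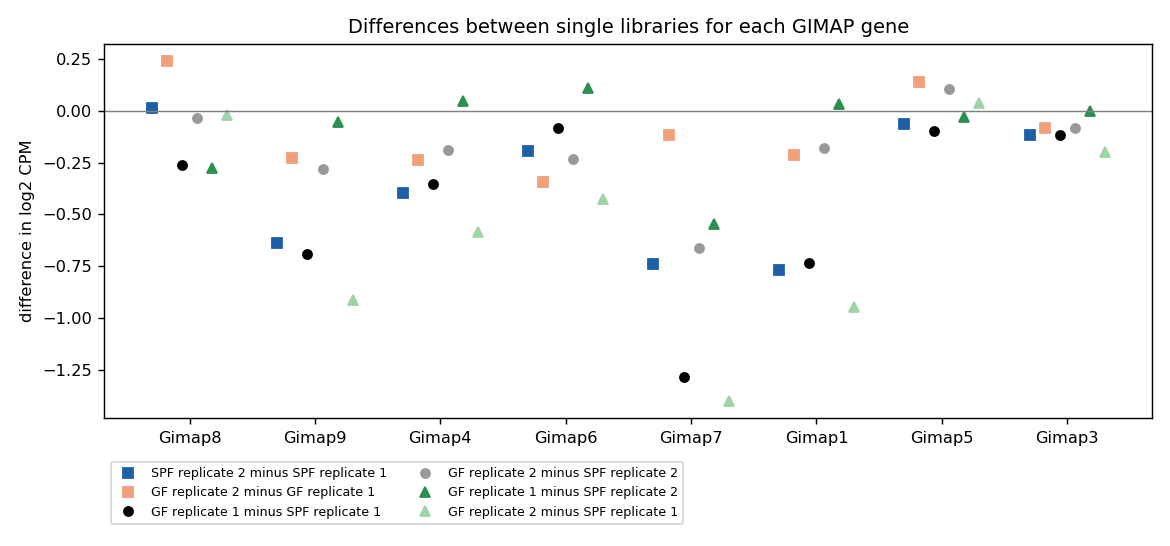
Each point is the difference in log2 CPM (vertical axis) between 2 single libraries for 1 GIMAP gene (horizontal axis, in chromosome order). Squares compare replicates of a group, circles compare GF with SPF at the same replicate number, and triangles across numbers. All 4 GF minus SPF differences of Gimap7 lie between -1.40 and -0.55, and those of Gimap5 between -0.10 and 0.11.

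Counts of 2 genes in the same library can be set against each other without scaling for library size. Such ratios are not corrected for transcript length, whose classes are described below. From SPF replicate 1 to 2, the median log2 difference was -0.54 in the length class of Gimap7 and -0.0009 in that of Gimap5. The part of length in the ratios was not tested. Per Gimap5 count there were 1.36 and 0.854 Gimap7 counts in SPF, against 0.597 and 0.501 in GF. Against its neighbour Gimap1, Gimap7 had 0.571 and 0.582 counts per count in SPF and 0.389 and 0.416 in GF. Against Gimap9 it had 1.03 and 0.962 in SPF and 0.683 and 0.738 in GF. The replicates of a group thus nearly coincided in the ratio to Gimap1 (0.577 ± 0.008 in SPF and 0.403 ± 0.019 in GF, SD, n = 2 each), although each gene alone varied within SPF. Other ratios varied more. That to Gimap5 was 1.11 ± 0.36 in SPF and 0.549 ± 0.068 in GF, and that to Gimap8 was 0.318 ± 0.115 and 0.175 ± 0.030. The GF libraries were below the SPF libraries in all 7 ratios of Gimap7 to another member. These 7 share the Gimap7 counts and are not separate observations. Groups did not overlap in 5 of the 21 ratios without Gimap7. The share over gene pairs of the whole table was not computed. These ratios were examined after the values were seen. Gimap7 made up 4.64% and 3.34% of all GIMAP counts in SPF and 2.32% and 2.34% in GF. Gimap3, the largest contributor, made up 26.2% and 29.1% in SPF and 29.5% and 30.4% in GF.

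**Figure D4:**
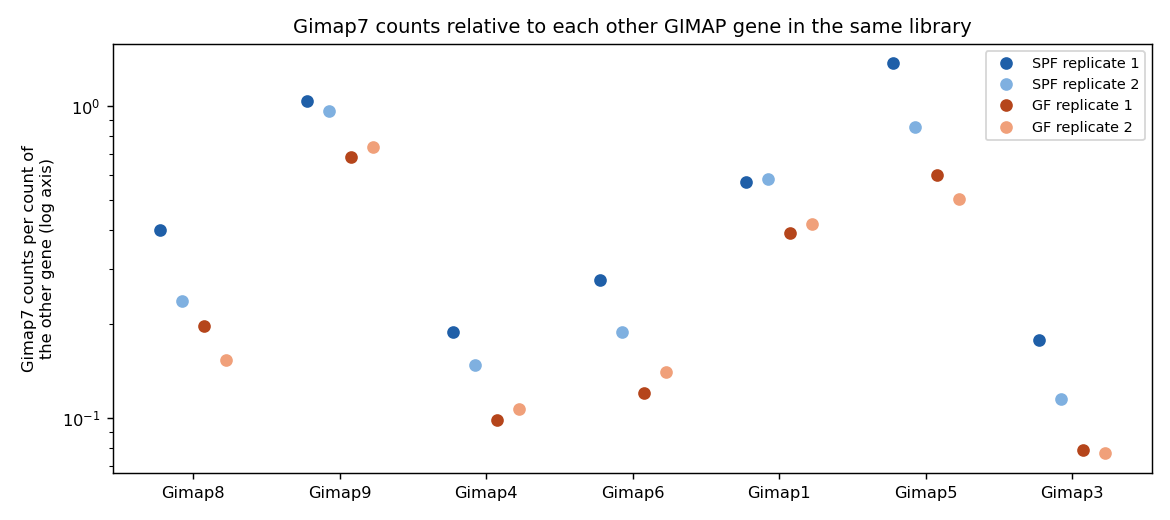
Points give Gimap7 counts divided by the counts of each other GIMAP gene in the same library (vertical log axis; horizontal axis, the other gene), in SPF replicates (blue) and GF replicates (orange). GF lies below SPF for all 7 genes, with 0.571 and 0.582 in SPF against 0.389 and 0.416 in GF for Gimap1.

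Differences between these libraries followed transcript length over all genes. The annotated exons of Gimap4, Gimap7 and Gimap9 (1837, 2325 and 1642 bases) put them among the 2153 shortest of the 10765 tested genes with a length, in which the median log2 fold change was -0.25. That class had medians of -0.54 from SPF replicate 1 to 2 and -0.31 from GF replicate 1 to 2. Gimap1, Gimap3, Gimap6 and Gimap8 fell in the next class (median log2 fold change -0.09) and Gimap5, at 4149 bases, in the middle class (-0.01). With the length trend of each library removed, the log2 fold change was -0.83 for Gimap7 (SE 0.19, adjusted p = 0.75 in the edgeR quasi-likelihood test), -0.40 for Gimap1 and -0.23 for Gimap9. It was -0.04 for Gimap4, -0.09 for Gimap6, -0.10 for Gimap8 and 0.02 for Gimap5, and 0.03 for Gimap3, whose sign turned. The median of the 8 was then -0.09.

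Markers of other cells were summed per library. NK cell markers, some of which activated CD8 T cells also express, were at 92.2 and 62.0 CPM in SPF and 49.9 and 43.7 CPM in GF. This sum had the library order of Gimap7 and of the mean of the members. The share of all tested genes with that order was not computed. Among the tested NK cell markers, Klrb1c and Tyrobp had this order, whereas Klre1 and Fcer1g were higher in GF replicate 2 than in GF replicate 1. Of 7, 4 were tested and all 4 were lower in GF without overlap, as held for 16.4% of tested genes. They were Klre1 (19.0 and 10.3 against 5.87 and 6.94 CPM), Fcer1g (11.96 and 5.86 against 3.21 and 4.08 CPM), Tyrobp (11.3 and 6.07 against 5.87 and 4.43 CPM) and Klrb1c (50.4 and 39.2 against 33.4 and 29.5 CPM). Klra8 and Klra4 were at 0 counts in every library, which allows up to 0.26 CPM in the shallowest, and the NK-defining Ncr1 had 0 to 3 counts. The part of these cells in the Gimap7 difference was not tested. B cells also express GIMAP genes, and B cell markers had 84.2 and 26.0 CPM in SPF and 105.4 and 28.5 CPM in GF, led by Cd79b and with Ms4a1 and Pax5 at 0 in both libraries numbered 2. The sum was thus higher in both libraries numbered 1 than in both numbered 2. The part of B cells in the GIMAP values was not tested. Endothelial markers totalled 0.21 to 0.84 CPM, led by Cdh5, with 3 of 6 at 0 everywhere.

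Dendritic cell markers totalled 397.5 and 710.8 CPM in SPF and 782.3 and 986.2 CPM in GF. Nearly all of this was Itgax, which activated CD8 T cells can also express, and the defining Flt3 had 0 to 2 counts. Macrophage and monocyte markers totalled 86.7 to 123 CPM, led by Itgam, with overlapping groups. CD4 and regulatory T cell markers totalled 30.7 and 29.4 CPM in SPF and 15.6 and 22.2 CPM in GF, led by Cd40lg, while Cd4 itself had 0 to 6 counts. Platelet markers, led by Itga2b, totalled 2.08 to 4.50 CPM, erythroid markers, led by Alas2, 0.77 to 1.56 CPM and neutrophil markers, led by S100a8, 0.07 to 0.87 CPM. The part of these cells in the GIMAP values was not tested.

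GIMAP members lie in a region whose other genes were little expressed. Of 16 other genes of the table that start within 250 kb of the cluster, 8 were tested, at 0.136 to 25.5 CPM, and the other 8 had at most 3 counts in any library. None of the 8 passed the edgeR quasi-likelihood test, 5 had lower and 3 higher means in GF, and the median log2 fold change was -0.26. Lrrc61, the most abundant, had 25.5 and 19.8 CPM in SPF and 19.6 and 18.5 CPM in GF. Zfp467, a zinc finger gene, had 16 and 10 counts in SPF and 2 and 8 counts in GF, and these were the 2 neighbours among the 8 whose GF libraries were both below SPF, as held for 16.4% of tested genes. Among the rest, Zfp862-ps had 4.28 and 7.13 CPM in SPF and 1.84 and 4.86 CPM in GF, and Repin1 14.4 and 9.53 against 10.6 and 9.08 CPM. Zfp775 had 11.7 and 12.4 against 20.0 and 11.7 CPM, and AI854703 8.21 and 5.65 against 6.28 and 4.43 CPM, and all 4 had overlapping groups. The membrane protein genes Tmem176a and Tmem176b, just beyond Gimap3, had 1.48 to 3.14 CPM with overlapping groups.

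Genes of autophagy and survival, where several GIMAP proteins have partners, were followed as a list. Of 20 such genes, 0 passed the edgeR quasi-likelihood test, 15 had lower and 5 higher means in GF, 5 were lower in GF without overlap and 1 higher (16.4% and 16.8% of tested genes were), and the median log2 fold change was -0.13. Gabarapl2, the Gimap6 partner of the ATG8 family, had 344.2 and 197.0 CPM in SPF and 191.2 and 174.2 CPM in GF (log2 fold change -0.57, SE 0.32). Its relative Gabarap had 242.0 and 148.1 CPM against 167.1 and 128.7 CPM, with overlapping groups. In both genes SPF replicate 1 stood apart, and the other libraries lay closer together. Atg5, needed to form autophagosomes, had 70.4 and 56.1 CPM against 53.7 and 48.3 CPM. The survival gene Bcl2 was at 0.05 (SE 0.24) and Gsk3b, a kinase linked to Gimap5, at 0.15 (SE 0.24). No length-corrected median is given for these genes either.

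Naive and resting T cell genes, with which GIMAP genes are commonly co-expressed, split between the directions. Of 16, 0 passed the edgeR quasi-likelihood test, 9 had lower and 7 higher means in GF, and the median log2 fold change was -0.08. The lymph node homing receptor gene Ccr7 had 116.3 and 71.3 CPM in SPF and 70.6 and 46.9 CPM in GF, and Dapl1 4.80 and 3.32 against 2.32 and 1.93 CPM. Foxo1, a transcription factor of quiescence, went the other way with 197.6 and 200.8 CPM in SPF and 246.4 and 291.7 CPM in GF. Over the whole list of 16, 4 genes were lower and 4 higher in GF without overlap, against 16.4% and 16.8% of tested genes.

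The mean centred log2 CPM of the 8 members was 0.34 and -0.02 in SPF, against -0.11 and -0.21 in GF. The tested genes outside the family whose 4 values lay nearest to this profile, by root mean square distance, were Fh1 (fumarase, 0.010), Ei24 (0.011), Cnot8 (a deadenylase subunit, 0.012), Derl1 (an ER degradation factor, 0.012) and M6pr (a lysosomal sorting receptor, 0.014). Gimap4 was the member nearest the family's own mean, with 1.44% of tested genes nearer. Gimap7 was the furthest at 0.35, with 58.0% of tested genes nearer. Its values, 0.86 and 0.12 in SPF and -0.43 and -0.55 in GF, had the library order of the mean with a wider range. Other members had another order, as Gimap8 (0.07 and 0.08 in SPF, -0.19 and 0.05 in GF) and Gimap5 (0.03 and -0.04, then -0.07 and 0.07). The mean includes each member itself.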

How the data were processed

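The members and gene lists were chosen with earlier results of these data known. The authors deposited raw read counts by gene symbol, 1 column for each of 4 libraries. The submitters' processing notes name mm10, TopHat, featureCounts from Subread, edgeR, CASAVA and Picard; how each was run is not given in the sources used here. Libraries were made with a TruSeq kit from 1 µg of total RNA, per the labels' protocols. Total counts were 11544960 to 14431533 per library; a gene at 0 could hold 3 counts.

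Counts were tested in edgeR 4.0.16 (R 4.3.3) with TMM scaling, filterByExpr and the two-sided quasi-likelihood F test, over 11271 genes, with Benjamini-Hochberg adjustment and a threshold of 0.05. Standard errors are the fold change over the square root of F, and 95% intervals use 5.28 degrees of freedom. Log2 CPM used a prior count of 2. Sums of marker lists use plain library totals. The steps were run on simulated data, drawn with the dispersion of the fit with the replicate block and no replicate effect. That noise is unlike these libraries, so the simulation does not measure power or false calls here. Alternatives used other scalings and filters, DESeq2 1.42.0, limma 3.58.1 (voom), the exact test and a robust quasi-likelihood fit. Others used the replicate block, a length correction, a threshold of 0.1 and each library left out. Lengths and positions came from GENCODE M21 (GRCm38, the assembly of mm10), which gave a length for 95.5% of tested genes. Upstream sequences came from RefSeq (GRCm38.p6). The text names all members, neighbours within 250 kb, up to 3 genes per list by smallest p, the 5 genes nearest in profile and the leading marker of each other cell type; other names were chosen after their values were seen. Figures used matplotlib 3.10.9.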

Additional observations from a re-analysis of the deposited data

How the results depend on the processing

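Under the 17 alternatives, Gimap1, Gimap4, Gimap7, Gimap8 and Gimap9 had negative log2 fold changes in every one, and the median of the 8 members was negative in every one. The alternatives share these libraries, and the threshold of 0.1 leaves every fold change as it was, so the signs are not separate observations. The number of genes called over all was 9 by DESeq2 and 9 by the edgeR exact test. The replicate numbers are shared between the groups, but no label says what they mark; same-numbered libraries deviated together (correlation 0.71 over 11271 genes, from 2 pairs). With the replicate block, 1206 genes were called, 2 of them members: Gimap7 (log2 fold change -0.98, adjusted p = 0.0013) and Gimap9 (-0.49, adjusted p = 0.046). With the replicate block and the length trend removed, 791 were called, and 1 member, Gimap7 (-0.82, adjusted p = 0.011). Leaving out 1 library at a time gave 0 to 1327 calls over all genes (17 without SPF replicate 1 and 1327 without SPF replicate 2) and 0 to 1 among the members. Such fits leave a lone library in a group, assumed to vary like the other group. The sign of Gimap5 turned with upper quartile scaling (-0.0025), with no filter (-0.0054) and with single libraries left out (-0.068 to 0.070); that of Gimap6 did with libraries left out (-0.34 to 0.0079), and that of Gimap3 with the length trend removed (0.028), also with the replicate block (0.031). The cause was not tested. Per kilobase of the longest transcript, mean levels were 176 CPM for Gimap1, 588 for Gimap3, 74.2 for Gimap5, 113 for Gimap7 and 182 for Gimap8, higher because the length is shorter.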

Other observations

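Septins are the animal GTPases whose domain is most often compared with that of GIMAP proteins. Of 13 septin genes 10 were tested, 0 passed the edgeR quasi-likelihood test, 6 had higher and 4 lower means in GF, and 2 had no counts in any library. Sept8 had 23.9 and 24.9 CPM in SPF and 33.2 and 42.8 CPM in GF, a log2 fold change of 0.64 (SE 0.24). Sept10 was near the detection limit at 0.87 and 0.92 CPM in SPF and 2.32 and 1.72 CPM in GF. Sept7, a core subunit of septin filaments, had 295.0 and 245.7 CPM in SPF and 208.6 and 207.4 CPM in GF. Over the 10 tested septins, 3 were lower and 3 higher in GF without overlap, against 16.4% and 16.8% of tested genes.

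Among 16 lymphoid transcription factor genes, 0 passed that test. Means were higher in GF for 12 and lower for 4, where 50.3% of tested genes had a negative log2 fold change. The median log2 fold change was 0.19, opposite in sign to that of the GIMAP members. Over all genes the median rose with exon length, from -0.25 in the shortest class to 0.18 in the longest. No length-corrected median is given for this list. Rbpj, the DNA-binding partner of Notch, had 190.1 and 226.8 CPM in SPF and 280.6 and 302.0 CPM in GF. Elf4, an ETS factor, had 296.6 and 435.2 CPM in SPF and 454.4 and 617.9 CPM in GF. Runx3, a RUNX factor of CD8 T cells, had a log2 fold change of 0.21 (SE 0.28). Some genes of the list were nearer 0 or lower in GF, as Elf1 (0.10), Fli1 (0.02), Gabpa (-0.04) and Cbfb (-0.22).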
